A study of Mus musculus with 6 samples.

Results

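The genes described here are 8 markers of the vessel wall in skeletal muscle: Acta2, Tagln, Myh11, Cnn1 and Smtn of contractile smooth muscle, and Rgs5, Notch3 and Pdgfrb of mural cells (smooth muscle cells and pericytes). They were chosen by name from the 8251 genes that the array annotation names singly, and every probe set assigned to 1 of these symbols alone was taken. This gave 9 probe sets, 2 of them for Rgs5, of the 12422 on the array that are not controls. RNA came from soleus, a postural hind limb muscle of mainly slow fibres, of male mice. The knockout group held 3 samples of BERKO mice, which lack estrogen receptor beta (gene Esr2), a nuclear hormone receptor, and whose strain background the labels leave out. The wild-type group held 3 samples of C57BL/6 mice. Ages, treatments and the construction of the knockout allele are not given in the sources used here. The labels also do not state whether each sample was a separate animal, so the p-values describe the spread among these samples, which may be technical.

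Small arteries are wrapped in layers of smooth muscle, and capillaries carry scattered pericytes. Contractile smooth muscle builds thin filaments from its own actin and binding proteins, and its genes are switched on by serum response factor (SRF) and the coactivator myocardin through a promoter element called the CArG box. Pericytes are recruited to capillaries by platelet-derived growth factor B from the endothelium, which acts on the receptor encoded by Pdgfrb, while endothelial Jagged ligands act on the Notch3 receptor to maintain arterial smooth muscle. In a muscle homogenate these cells are a minority among fibres, and fewer mural cells cannot be told apart from less RNA per cell.

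A RefSeq promoter table (GRCm38.p6) held 5 of the 8 genes: Acta2, Cnn1, Smtn, Rgs5 and Notch3. The 250 bases before each annotated start were searched for the CArG box, whose pattern reads alike on both strands. Boxes with 1 of the 6 inner bases changed to G or C were also counted. Of the 5 windows 1 held a match, that of Acta2, which held 2 boxes with 1 changed inner base each. An intact box stood in 1.47% of the table's 32851 windows, an intact or once-changed one in 8.59%, and 2 or more in 0.67%. The Acta2 window is shown because it carries the element that ties this gene to the contractile programme, and its boxes are in capitals (chr19:34255374-34255623, minus strand, 5′ to 3′).
Acta2: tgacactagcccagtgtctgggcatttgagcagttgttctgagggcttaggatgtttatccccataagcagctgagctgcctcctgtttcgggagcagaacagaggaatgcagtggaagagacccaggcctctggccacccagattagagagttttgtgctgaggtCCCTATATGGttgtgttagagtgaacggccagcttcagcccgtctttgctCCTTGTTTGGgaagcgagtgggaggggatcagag
The boxes began 84 and 34 bases before the annotated start. No match in the other windows says only that these letters were not found there.

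Of the 9 probe sets 8 were above the median of all values, an intensity of 39.4, on all 6 arrays, and these 8 were tested. Intensities are linear units that the authors had scaled alike on each array. The soleus markers were bright: 8 slow fibre genes summed to 63657 to 69970 in knockout samples and 51180 to 64930 in wild-type samples. The array medians lay between 36.8 and 40.5, and log2 values of any pair of arrays correlated at 0.957 to 0.971 over probe sets.

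None of the 8 tested probe sets, which cover 7 of the 8 genes, gave a knockout minus wild type difference whose 95% interval left out 0. In limma, 0 of the 8 tested probe sets reached an adjusted p of 0.05, where 0% of all 6369 did. At an unadjusted p under 0.05 there were 0 of 8, against 5.24% of all. In 0 of 8 were the knockout and wild-type arrays free of overlap, against 10.7% of all. Of the 8, 3 were higher and 5 lower in the knockout, with a median log2 difference of -0.08. Of all tested probe sets 46.8% were higher, and their median was -0.02. The adjusted p of the 8 ran from 0.923 to 0.996, and 0.923 was also the smallest over the whole array.

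**Figure D1:**
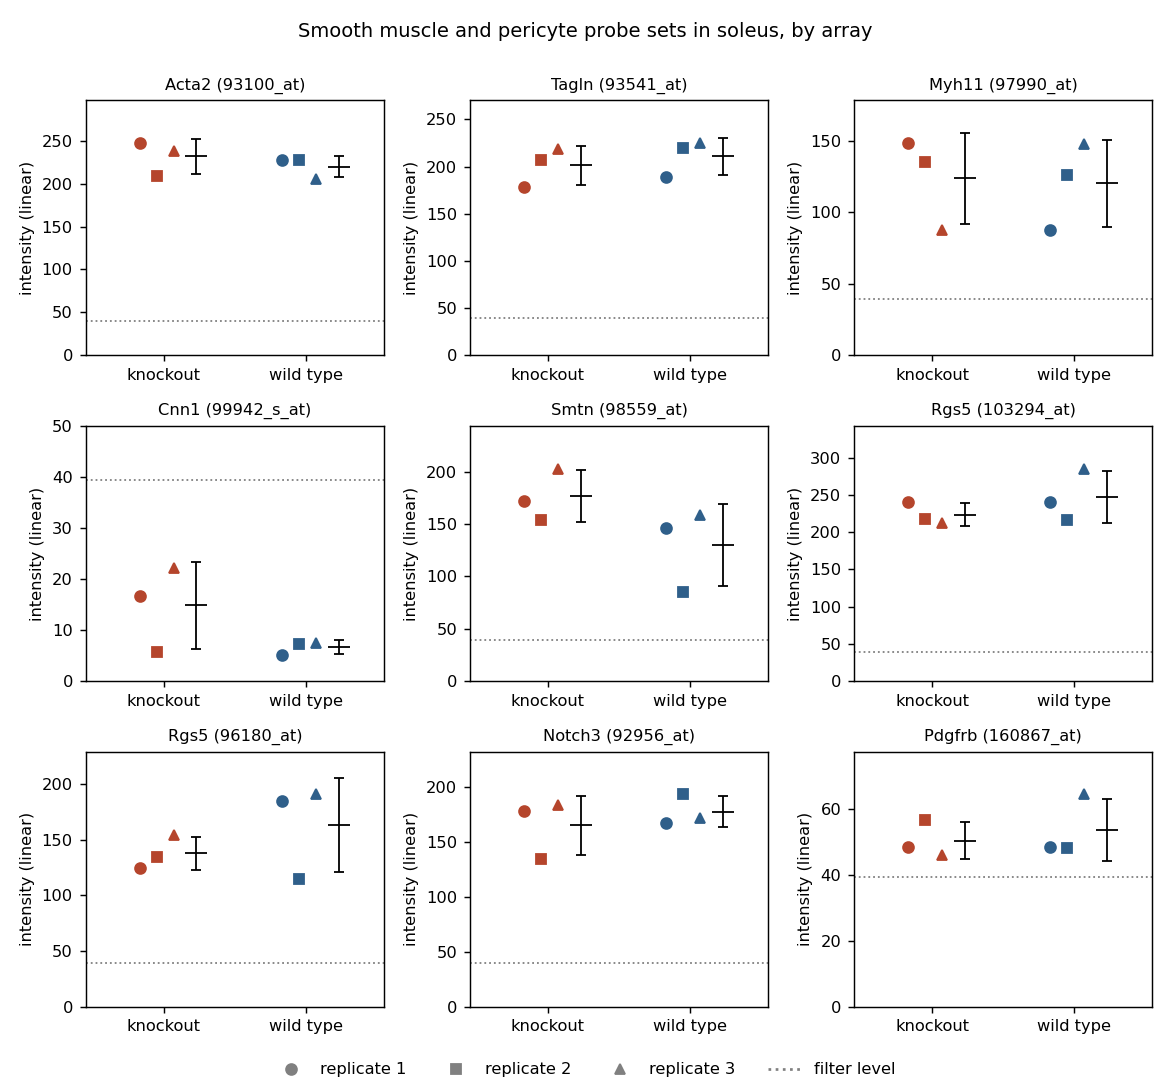
Linear intensity of the 9 probe sets on each array, knockout on the left and wild type on the right of each panel. Symbols mark replicates, bars the mean and SD of 3 arrays, and the dotted line the filter level of 39.4. The groups overlap in all 9 panels, and only Cnn1 lies below the filter.

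Acta2 encodes smooth muscle alpha actin, the main thin filament protein of arterial smooth muscle. Its probe set (93100_at) read 247.8, 209.3 and 238.7 in knockout samples, against 227.4, 227.3 and 205.3 in wild-type samples. The groups overlapped, with the highest value in knockout replicate 1 and the lowest in wild-type replicate 3. The log2 difference was 0.07 ± 0.13 (SE, n = 3 each; limma adjusted p = 0.984, exact permutation p = 0.4), and its 95% interval covered knockout to wild-type ratios of 0.865 to 1.28. The difference was 0.025 without knockout replicate 1 or without wild-type replicate 3, 0.15 without knockout replicate 2 and 0.17 over the 4 arrays whose titles share a prefix. An exact test of 3 against 3 arrays cannot go below 0.1.

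Acta2 also varied least among the 8 probe sets. Its coefficient of variation over the 6 arrays was 7.3%, beside a median of 14.9% over all tested probe sets. Of the tested probe sets 8.68% varied less, as did 14.6% of the 500 nearest to it in mean intensity.

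Tagln, which encodes transgelin (SM22 alpha), an actin-binding protein of smooth muscle, had a probe set (93541_at) at 178.8, 206.8 and 218.7 in knockout samples. It read 188.5, 219.4 and 225.3 in wild-type samples. In each group the first replicate was the lowest and the groups overlapped. Knockout minus wild type gave a log2 difference of -0.07 ± 0.14 (SE; limma adjusted p = 0.984), with an interval of 0.770 to 1.18 as a ratio and a coefficient of variation of 9.1%.

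Myh11 encodes the smooth muscle myosin heavy chain, which is the most restricted of these contractile markers. It (97990_at) read 148.6, 134.8 and 87.9 in knockout samples, against 87.4, 125.7 and 147.4 in wild-type samples. Both groups ran over nearly the same range, with 1 low array in each. The means were 123.8 ± 31.8 in knockout and 120.2 ± 30.4 in wild type (SD, n = 3 each). On the log2 scale they differed by 0.04 ± 0.25 (SE; limma adjusted p = 0.996), and the interval of the ratio was wide, 0.701 to 1.51.

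Smtn encodes smoothelin, a cytoskeletal protein of fully contractile smooth muscle, and showed the largest difference among the 8 probe sets. Its probe set (98559_at) read 172.7, 154.5 and 203.4 in knockout samples, against 146.3, 85.4 and 158.6 in wild-type samples. Wild-type replicate 2 was the lowest array by far, and the groups overlapped between 154.5 and 158.6. The means were 176.9 ± 24.7 in knockout and 130.1 ± 39.2 in wild type (SD, n = 3 each), a log2 difference of 0.48 ± 0.23 (SE; limma p = 0.0651, adjusted p = 0.923; exact permutation p = 0.2).

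The interval of the Smtn ratio ran from 0.975 to 2.01. Without wild-type replicate 2 the log2 difference was 0.21, and without wild-type replicate 3 it was 0.65. The sample titles carry 2 prefixes whose meaning is not given, 1 shared by 4 arrays and 1 by both replicates 2. Among the 4 arrays Smtn read 172.7 and 203.4 in knockout and 146.3 and 158.6 in wild type, a log2 difference of 0.30, and on the other 2 arrays it read 154.5 in knockout and 85.4 in wild type. With the prefix as a block the limma p was 0.0155 and the adjusted p 0.774.

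Cnn1 encodes calponin, a thin filament inhibitor of myosin in smooth muscle. Its probe set (99942_s_at), whose suffix marks probes shared by more than 1 transcript, was below the filter on all 6 arrays and was not tested. It read 16.6, 5.6 and 22.2 in knockout samples, against 5.0, 7.2 and 7.5 in wild-type samples. Of these 6 values 4 did not exceed the floor of 7.8, all 3 wild-type values among them. No ratio is therefore given, and at this level the readings are not a measure of transcript.

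**Figure D2:**
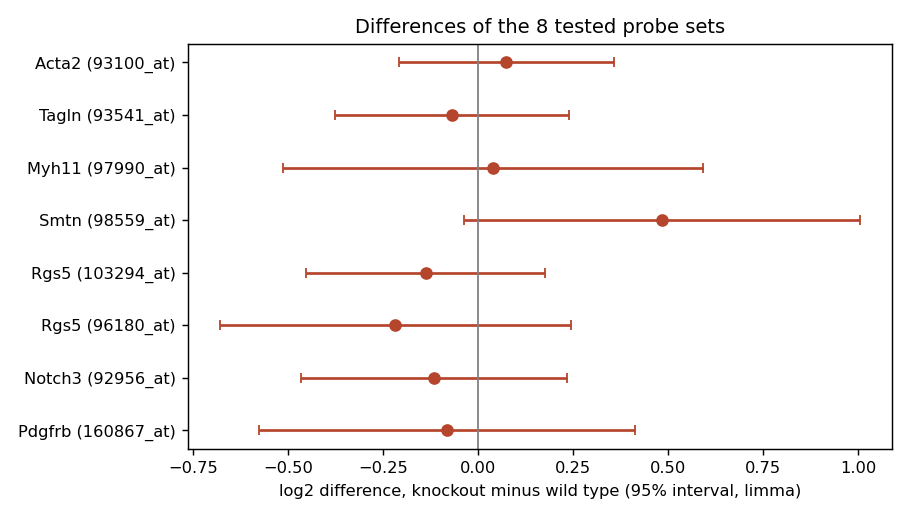
Log2 difference of knockout minus wild type for the 8 tested probe sets, with 95% intervals from limma (3 arrays a group). All 8 intervals include 0, and Smtn lies farthest from it at 0.48.

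Rgs5 encodes a regulator of G protein signalling that is abundant in pericytes and arterial smooth muscle. The brighter of its probe sets (103294_at) read 240.9, 217.8 and 212.7 in knockout samples, against 240.2, 216.3 and 285.8 in wild-type samples. Apart from wild-type replicate 3, the arrays of both groups lay in the same narrow range. Its log2 difference was -0.14 ± 0.14 (SE; limma adjusted p = 0.958), with an interval of 0.731 to 1.13 as a ratio. Without wild-type replicate 3 it was -0.03.

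The other Rgs5 probe set (96180_at) read 124.8, 134.2 and 154.4 in knockout samples, against 185.1, 114.9 and 191.0 in wild-type samples. Here wild-type replicate 2 was the lowest array and the other wild-type arrays the highest. This probe set gave a log2 difference of -0.22 ± 0.20 (SE; limma adjusted p = 0.958). It was -0.45 without wild-type replicate 2 (limma adjusted p = 0.809) and -0.09 without wild-type replicate 3. Both probe sets were lower on average in the knockout, and the 95% interval of each difference included 0. Over the 6 arrays they correlated at r = 0.641 (exact permutation p = 0.157; Spearman's rho = 0.429, exact permutation p = 0.419), and at 0.497 without the 2 arrays farthest from the median. Within the 4 arrays that share a title prefix r was -0.079, and with 1 array omitted it was 0.308 or more.

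Notch3 encodes the Notch receptor of mural cells. Its probe set (92956_at) read 177.9, 134.4 and 183.9 in knockout samples, against 167.7, 193.5 and 172.0 in wild-type samples. Knockout replicate 2 was the only array under 160 and the other 5 overlapped. The log2 difference was -0.11 ± 0.16 (SE; limma adjusted p = 0.974), with an interval of 0.725 to 1.18 as a ratio. Without knockout replicate 2 its sign turned, to 0.03.

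Pdgfrb encodes the beta receptor of platelet-derived growth factor. Its probe set (160867_at) read 48.4, 56.5 and 45.8 in knockout samples, against 48.3, 47.9 and 64.3 in wild-type samples. All 6 values were little above the filter level of 39.4, and the highest was that of wild-type replicate 3. The log2 difference was -0.08 ± 0.22 (SE; limma adjusted p = 0.990), the interval of the ratio 0.670 to 1.33, and the sign turned without wild-type replicate 3 (0.06).

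The 7 genes that passed the filter, each by its brighter probe set, showed no shared pattern across the 6 arrays that passed a test. Of 21 pairs of genes 12 correlated above 0 and 9 below it, with a median Pearson r of 0.011. Over all pairs of tested probe sets the median was -0.000352 and 49.97% were above 0. Among the 6 pairs of Acta2, Tagln, Myh11 and Smtn, r lay between -0.555 and 0.172 and was negative in 4. No pair passed 0.05 after Benjamini-Hochberg adjustment over the 21 pairs (smallest adjusted exact permutation p = 0.467 for Pearson's r and 0.846 for Spearman's rho), and 1 had an unadjusted Pearson p under 0.05.

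That pair was Acta2 and Pdgfrb, which ran in opposite directions at r = -0.871 (exact permutation p = 0.0222, adjusted p = 0.467; Spearman's rho = -0.600, exact permutation p = 0.242, adjusted p = 0.846). Wild-type replicate 3 and knockout replicate 2 had the lowest Acta2 and the highest Pdgfrb. The correlation was -0.868 with group means subtracted, -0.881 within the 4 arrays that share a title prefix, and between -0.962 and -0.808 whichever array was omitted. Without the 2 arrays farthest from the Acta2 median it was -0.999 over the remaining 4. Of all pairs of tested probe sets 2.72% correlated at least as strongly in either direction.

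Rgs5 and Pdgfrb, both pericyte genes, had the highest positive correlation at r = 0.706 (exact permutation p = 0.0708, adjusted p = 0.744; Spearman's rho = 0.829, exact permutation p = 0.0583, adjusted p = 0.846). Pdgfrb and the brighter Rgs5 probe set (103294_at), which was used here, were highest in wild-type replicate 3 and lowest in knockout replicate 3. The other Rgs5 probe set (96180_at) was also highest in wild-type replicate 3 but lowest in wild-type replicate 2. With group means subtracted r was 0.691 and within the 4 arrays 0.910, but it dropped to 0.263 without the 2 arrays farthest from the Rgs5 median. With 1 array omitted it lay between -0.090 and 0.923, lowest without wild-type replicate 3, so it rests mainly on that array. Notch3 correlated with Pdgfrb at -0.481 and with Rgs5 at 0.035 (adjusted exact permutation p = 0.992 and 0.994).

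Acta2 and Tagln, whose products bind in the same thin filament, correlated at -0.555 (exact permutation p = 0.244, adjusted p = 0.992; Spearman's rho = -0.714, exact permutation p = 0.136, adjusted p = 0.846). The value was -0.505 with group means subtracted, -0.643 within the 4 arrays, and -0.156 without the 2 arrays farthest from the Acta2 median. For scale, the 891 pairs of tested probe sets that belong to 1 and the same gene had a median r of 0.165, and 61.8% of them were above 0. These medians are over pairs of features, and features do not replicate each other.

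**Figure D3:**
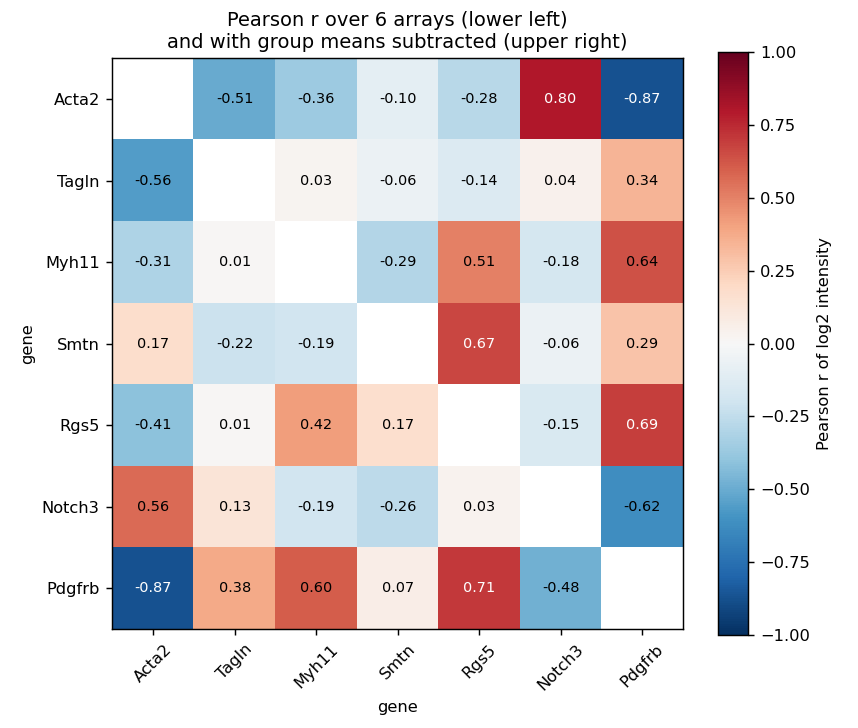
Pearson correlation of log2 intensity between the 7 tested genes over 6 arrays, below the diagonal, and with the mean of each group subtracted, above it. Blue cells are negative and red cells positive, and the strongest is Acta2 with Pdgfrb at -0.87 on both sides.

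**Figure D4:**
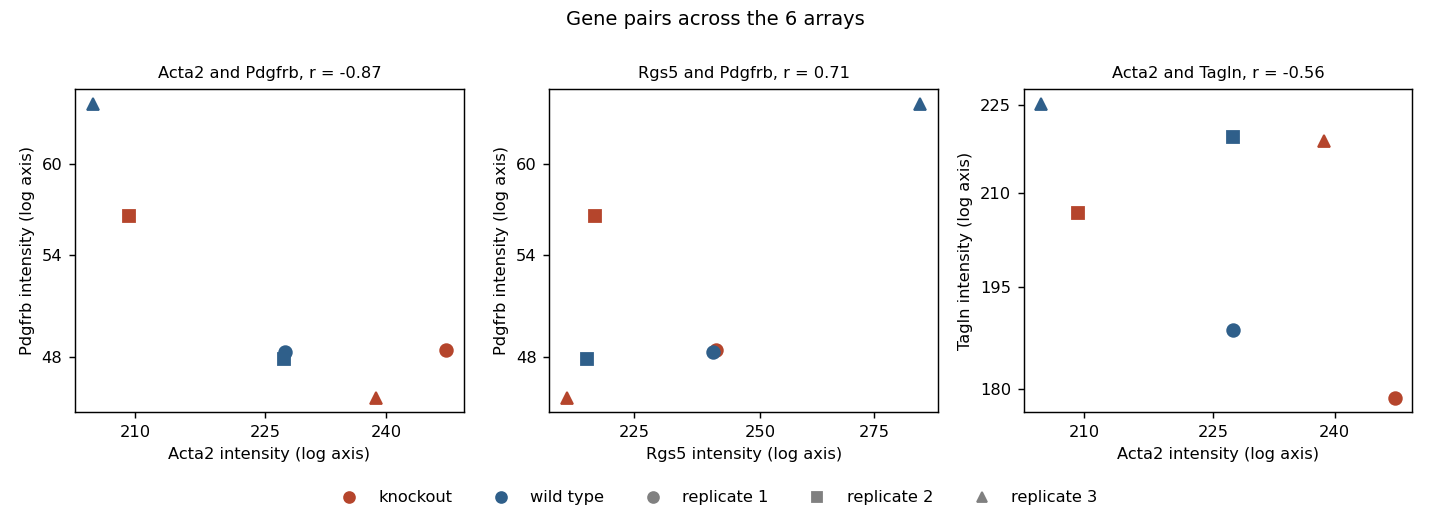
Intensity on log axes of 3 gene pairs, 1 point per array, with knockout in red, wild type in blue and symbols for replicates. Wild-type replicate 3 has the highest Pdgfrb and Rgs5 and the lowest Acta2.

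The mean of the standardised log2 profiles of the 7 genes was highest in wild-type replicate 3 (0.62) and lowest in wild-type replicate 1 (-0.36). The non-member genes whose probe sets were most like it over the 6 arrays were C1qa, a complement subunit made by macrophages (r = 0.982), Ifi204, an interferon-inducible gene (0.980), Fbln1, which encodes the matrix protein fibulin-1 (0.975), Ogfod2 (0.972) and Atp6v0a1, a subunit of the vacuolar proton pump (0.962). The suffix of the Ifi204 probe set marks sequence shared within a gene family. C1qa read 165.9, 113.6 and 138.4 in knockout samples, against 103.6, 108.3 and 225.3 in wild-type samples, and all 5 genes were highest in wild-type replicate 3. In all, 28 probe sets, 0.440% of those tested, had an r above 0.9 with this profile, while 0.863% of all pairs of tested probe sets had one. The 7 macrophage markers summed to 489.7 to 564.3 in knockout samples and to 475.1, 525.3 and 687.8 in wild-type samples, highest in wild-type replicate 3. That peak lay in Lyz2, which read 296.5 there and 129.8 to 181.1 on the other arrays. The 6 others summed to 357.5 to 383.2 in knockout samples and 327.0 to 395.5 in wild-type samples, highest in wild-type replicate 2.

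Further genes of the vessel wall were read from lists. Of 23 other contractile and adhesion genes with a probe set of their own, 16 were tested, and 9 were higher and 7 lower in the knockout, with a median log2 difference of 0.01. None passed the adjusted threshold. At an unadjusted limma p under 0.05 there was 1 in each direction, where 5.24% of all tested probe sets were in either direction. These were Rhoa and Rock1, the small GTPase and the kinase that set calcium sensitivity of contraction. Rock1 read 40.3, 44.8 and 52.5 in knockout samples, against 62.6, 77.9 and 62.6 in wild-type samples, without overlap. Its log2 difference was -0.56 ± 0.21 (SE, limma adjusted p = 0.923). The knockout values of Rock1 lay little above the filter level of 39.4. The brightest Rhoa probe set stood at 0.79, while the other probe sets of Rhoa gave -0.05 and -0.02. The 23 genes summed to 8408 to 8694 in knockout samples and 7977 to 8283 in wild-type samples, without overlap. With Rhoa left out, the remaining 22 summed to 8078.6 to 8260.9 in knockout samples and 7741.5 to 8078.9 in wild-type samples, which overlapped. Without the tropomyosins Tpm1 and Tpm2 the other 21 summed to 3058 to 3138 in knockout samples and 2774 to 3043 in wild-type samples, also without overlap. The 20 genes other than Rhoa and the tropomyosins summed to 2626 to 2808 in knockout samples and 2569 to 2808 in wild-type samples, which overlapped. The tropomyosins, which striated fibres express as well, made up 61.9% to 66.5% of the summed signal of the 23 genes and differed by 0.11 ± 0.14 and 0.08 ± 0.08 on the log2 scale (SE; limma adjusted p = 0.968 and 0.958).

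Of 17 other pericyte and mural markers 12 were tested, with 5 higher, 7 lower, a median log2 difference of -0.02 and none past the adjusted threshold. Only Nr2f2, a transcription factor of veins and mural cells, had an unadjusted limma p under 0.05, where 5.24% of all tested probe sets did. It read 81.2, 56.9 and 55.1 in knockout samples, against 94.0, 92.4 and 84.3 in wild-type samples, without overlap (log2 difference -0.51 ± 0.19, SE; limma adjusted p = 0.923). Anpep, Ebf1 and Thy1 overlapped between the groups, at -0.26, -0.42 and 0.62. Thy1 (SE 0.55) read 48.5, 50.4 and 29.9 in knockout samples, against 52.1, 10.8 and 35.5 in wild-type samples. Some of these Thy1 values lay below the filter level of 39.4, as did Ebf1 in knockout replicates 1 and 3 (36.9 and 31.6).

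Notch pathway genes other than Notch3 had 9 tested members, of which 8 were lower and 1 was higher in the knockout, where 46.8% of all tested probe sets were higher. Their median log2 difference was -0.13, and none passed the adjusted threshold. Notch1, Notch4 and the ligand genes Jag2 and Dll1 lay below the filter, so receptors and ligands beyond Notch3 were mostly not tested. Numb, an inhibitor of Notch signalling, read 41.8, 50.1 and 42.1 in knockout samples, against 73.1, 78.4 and 58.1 in wild-type samples, without overlap (log2 difference -0.64 ± 0.21, SE; limma adjusted p = 0.923). The knockout values of Numb lay little above the filter level of 39.4. Hey1, a target gene of the pathway, read 69.4, 74.5 and 93.8 in knockout samples, against 89.3, 118.4 and 94.4 in wild-type samples. Its groups overlapped (log2 difference -0.35; limma adjusted p = 0.937), as did those of Mfng (-0.30) and Rbpj (0.20).

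PDGF pathway genes had 9 tested members, 3 higher and 6 lower, with a median of -0.08 and 0 at an unadjusted limma p under 0.05. Pdgfb, the gene of the ligand that recruits pericytes, lay below the filter. The adaptor Grb2 stood at 0.28 while the probe sets of the kinase subunit Pik3ca (-0.44 and -0.003) and those of Pdgfra, the receptor of fibroblasts (-0.42 and 0.13), disagreed. Regulators of the contractile programme had 16 tested members, 6 higher and 10 lower, with a median of -0.07 and none past the adjusted threshold, and 4 of the 16 had an unadjusted limma p under 0.05, where 5.24% of all tested probe sets did. Mrtfa, an SRF coactivator, read 116.0, 85.7 and 129.2 in knockout samples, against 94.1, 76.5 and 66.5 in wild-type samples. Klf4, a repressor of contractile genes, read 230.1, 193.9 and 181.5 in knockout samples, against 391.8, 221.3 and 271.5 in wild-type samples. Both overlapped between the groups, at log2 differences of 0.47 and -0.51 (limma adjusted p = 0.923 each). Profilin, Pfn1, stood at 0.59 and Mef2c at 0.29, with its other probe sets at 0.24, 0.28 and -0.21.

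**Figure D5:**
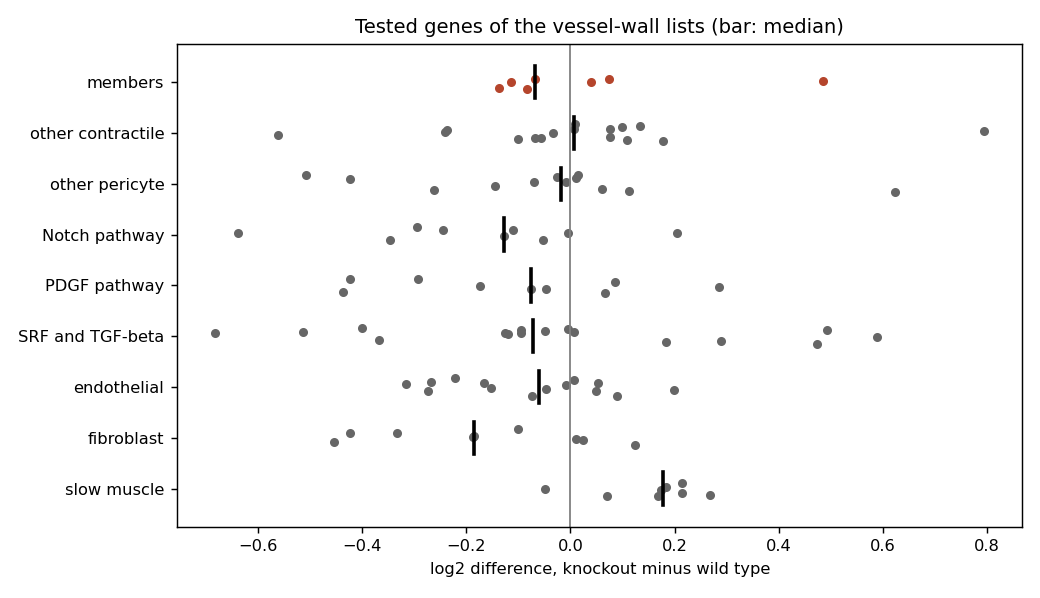
Log2 difference of knockout minus wild type for each tested gene of 9 gene lists, 1 point a gene by its brightest probe set, with a black bar at the list median. The 7 members are red and centre on -0.07. The medians of the Notch pathway, fibroblast and slow muscle lists lie at -0.13, -0.18 and 0.18.

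Actin genes are nearly alike in sequence, so the identity of the Acta2 signal in a tissue full of skeletal actin is uncertain. The suffix of the Actg2 and Actc1 probe sets read here marks sequence shared within a gene family. That of the Actb probe set marks probes shared by more than 1 transcript. Readings of these genes, and their correlations with Acta2, may therefore include signal from other actin genes, which was not tested. The skeletal gene Acta1 read 12013, 11327 and 12167 in knockout samples, against 8177, 11141 and 9999 in wild-type samples, without overlap (log2 difference 0.29 ± 0.11, SE; limma adjusted p = 0.923). Acta2 correlated with Acta1 at 0.338 over the 6 arrays, and with the enteric gene Actg2 at 0.456, Actc1 at -0.674, Actb at -0.237 and Actg1 at -0.368 (exact permutation p from 0.175 to 0.622, adjusted p = 0.622 for each of the 5). Spearman's rho was 0.543, 0.314, -0.429, -0.314 and -0.314 in the same order (adjusted exact permutation p = 0.564 each). Without the 2 arrays farthest from the Acta2 median r was 0.158 for Acta1 and 0.807 for Actg2. Within the 4 arrays that share a title prefix it was -0.255 and 0.215, and with 1 array omitted it lay between 0.138 and 0.832 for Acta1 and between 0.082 and 0.732 for Actg2. The log2 differences of Actg2, Actc1, Actb and Actg1 were -0.10, -0.02, -0.05 and -0.005. Other probe sets of Actc1 and Actb gave 0.19 and -0.20.

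Markers of neighbouring cell types were read in the same way. All 14 endothelial markers were tested, 5 higher and 9 lower with a median of -0.06, and their sum was 1839 to 1989 in knockout samples and 1843 to 2044 in wild-type samples. The sum of the 8 members was 1120 to 1232 in knockout samples and 1111 to 1266 in wild-type samples. Of 9 fibroblast markers 6 were lower (median -0.18), with sums of 4960 to 5330 in knockout samples and 4796 to 5901 in wild-type samples. Adipocyte markers summed to 366.1 to 397.5 in knockout samples and 395.6 to 639.0 in wild-type samples, with 3 of 4 tested lower. Red blood cell transcripts summed to 2117 to 2381 in knockout samples and to 4724, 1733 and 1911 in wild-type samples, so wild-type replicate 1 stood apart. Of the tested markers of satellite cells 2 of 2 were higher, of macrophages 2 of 4, of Schwann cells 1 of 3, of red cells 0 of 3 and of slow fibres 7 of 8 (median 0.18). At an unadjusted limma p under 0.05, as 5.24% of all tested probe sets were, Mfap5 of fibroblasts (-0.45) and Adipoq of adipocytes (-0.90) were lower. Sox10 of Schwann cells (0.47) and the slow fibre genes Mb (0.27) and Myl3 (0.21) were higher. The other probe set of Mfap5 gave 0.04. None of these lists held a gene past the adjusted threshold, and their part in the values of the members was not tested.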

How the data were processed

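Total RNA of 6 soleus samples was measured on 1 Affymetrix mouse array each. The deposited values are linear intensities, 1 per probe set, which the authors had scaled to a common trimmed mean. The sources used here name no software, and the number of arrays limits the precision. Of 12488 probe sets 66 controls were left out, and 10833 of the rest had exactly 1 symbol in the platform annotation.

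Values under the 20th percentile, 7.8, were set to it before the log2 transform. Testing required an intensity over the overall median, 39.4, on 3 or more of the 6 arrays. Knockout minus wild type was fitted over all 6369 such probe sets with limma 3.58.1 in R 4.3.3 (lmFit, eBayes with trend; two-sided, Benjamini-Hochberg over all), which was also tested on simulated data. The median SE was 0.18 on the log2 scale. Correlations used exact permutation over the 720 orders of 6 arrays in Python 3.11.15, and figures matplotlib 3.10.9.

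Members and gene lists were chosen with earlier results of these data known. The lists cover other contractile, pericyte, Notch, PDGF and SRF and TGF-beta genes, actins, and markers of endothelium, fibroblasts, satellite cells, macrophages, Schwann cells, adipocytes, red cells and slow fibres. Genes were read by their brightest probe set. Named genes are all members, up to 4 per list with the smallest p, the 5 most like the mean member profile, and the actins. The tropomyosins and the sums without Lyz2 or Rhoa were chosen after their values were seen. Alternatives were other normalizations, floors, filters and eBayes settings, array weights, blocks and leaving out arrays. A cyclic loess normalization and a comparison within the 4 arrays of 1 title prefix were added after seeing the data.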

Additional observations from a re-analysis of the deposited data

How the results depend on the processing

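No member probe set passed the adjusted threshold in limma under any of the 19 alternatives (adjusted p from 0.531 to 1.00), and 144 of 151 values kept their direction. Those that turned were Tagln (0.015) and Myh11 (-0.11) without knockout replicate 1, Myh11 (-0.04) and Notch3 (0.028) without knockout replicate 2, Myh11 without wild-type replicate 1 (-0.17), Pdgfrb without wild-type replicate 3 (0.057), and Notch3 over the 4 arrays that share a title prefix (0.091). The cause was not tested. The 151 values include those under the other floors, filters, eBayes settings and blocks. There each tested member kept exactly its main log2 difference, so only the remaining alternatives could turn a direction. Smtn ran from 0.21 to 0.65 over all alternatives. Its unadjusted limma p was under 0.05 in some of them, at the lowest 0.0155 with the title prefix as a block. The same held for Rgs5 probe set 96180_at, at the lowest 0.0179 without wild-type replicate 2. No other member probe set had an unadjusted limma p under 0.05 in any alternative. With 1 array omitted, Acta2 lay between 0.025 and 0.15, Myh11 between -0.17 and 0.27, Notch3 between -0.20 and 0.028, Tagln between -0.15 and 0.015, Pdgfrb between -0.17 and 0.057, the median of the tested members between -0.15 and 0.0031, and the median r between member genes between -0.061 and 0.18, the highest without knockout replicate 3. Over all probe sets 1 passed without the filter (Hoxd1, adjusted p = 0.0240) and 0 to 1 passed with 1 array omitted (Tuba1a without knockout replicate 1, adjusted p = 0.0412). With adjacent title numbers as a replicate block 1 passed (Myh4, adjusted p = 0.00313). Deviations of same-numbered arrays correlated at -0.00518, 0.0354 and -0.00285, so the numbers are not taken to pair samples. Pdgfrb was not tested with the filter at the 70th percentile. The number of arrays, 3 a group, limits the precision to the intervals given.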
